A study of Caenorhabditis elegans with 6 samples.

Results

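The genes described here are the cuticle collagen genes of Caenorhabditis elegans, taken by symbol as every gene whose name begins with col-, sqt- or rol-, together with bli-1, bli-2, lon-3 and the dpy genes that encode collagens. This rule gave 177 of the 46778 genes in the table, of which 156 carry a col- symbol and 21 another symbol, and all 177 are annotated as protein coding. No expression value was used to choose them. One gene taken by its symbol, rol-3, encodes a receptor tyrosine kinase and no collagen, and col-99 encodes a transmembrane collagen.

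RNA was sequenced from whole N2 worms, the wild-type laboratory strain, in 3 libraries labelled let-607 RNAi and 3 control libraries. Synchronized L1 larvae of both groups were grown at 20 °C on HT115 bacteria and collected as L4 larvae, the last larval stage. The bacteria carried let-607 RNAi or the empty vector L4440, and the let-607 RNAi culture was diluted with the vector culture because the undiluted culture arrested development. The comparison asks which genes depend on LET-607, a transcription factor of the CREBH family. The labels do not say whether the 3 libraries of a group came from separate cultures, so p-values measure the spread between these libraries.

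The cuticle is the exoskeleton of the worm, and the epidermis builds a new one before each molt. Most of it is small collagens, each from its own gene, which are hydroxylated in the endoplasmic reticulum, trimmed by proteases, secreted and cross-linked. Collagen genes are switched on in waves within each larval stage, so their mRNA levels depend on the hour at which a population is collected. The furrow collagens form the circumferential grooves of the cuticle, and other collagens set body shape. Mutations in cuticle collagen genes can give dumpy, squat, rolling, blistered or long worms.

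Values are FPKM, fragments per kilobase of transcript scaled to library size, and differences are log2 ratios of let-607 RNAi over control on the log2(FPKM + 0.1) scale. The summed FPKM of all genes was 1400487 to 1429914 in the let-607 RNAi libraries and 1448933 to 1485099 in the control libraries. Fragment totals were not given in the sources used here. Among low values, the most frequent ratio to control 1 was 0.97, 0.99 and 1.01 in let-607 RNAi libraries 1, 2 and 3. It was 0.94 and 1.03 in control libraries 2 and 3. Only ratios near 1 were searched, so these values cannot show whether the depths were alike. The target gene let-607 stood at 71.0, 76.2 and 77.9 FPKM in the knockdown libraries, as labelled, and at 69.1, 57.1 and 57.3 FPKM in the control libraries (log2 fold change 0.30, adjusted p = 0.034, limma, and 0.103 to 0.151 in 6 of 16 alternative settings). Its FPKM, which takes in every fragment assigned to the gene, was therefore not lower in the libraries that carry the let-607 RNAi label. The study also measured let-607 mRNA by qPCR, which is not analysed here, and every direction below is that of the labels. Across the 15453 genes tested the median log2 fold change was 0.12, and 0.01 after median-of-ratios scaling, so a gene at the median appears slightly higher in the let-607 RNAi libraries before scaling.

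Cuticle collagen mRNA was abundant in these larvae. Their summed FPKM was 76915, 72453 and 72040 in let-607 RNAi libraries 1, 2 and 3, against 85442, 70187 and 78247 in control libraries 1, 2 and 3. This was 5.38%, 5.10% and 5.14% of all FPKM in the let-607 RNAi libraries and 5.90%, 4.78% and 5.27% in the control libraries. The groups overlapped, with the highest and the lowest sum both in control libraries. Among the 177 genes, 140 averaged 0.5 FPKM or more and were tested, 28 lay below that level and 9 were listed at 0 in every library. The 20 most abundant members held 63.1% of the collagen FPKM, and 27 members averaged over 1000 FPKM. The 5 highest were col-73, col-138, col-38, col-71 and dpy-5, with means of 5111, 3444, 3181, 3127 and 2930 FPKM over the 6 libraries.

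A member was called changed at an adjusted p under 0.1 with more than a 2-fold difference. By this rule 4 of the 140 collagen genes were higher, a share of 2.86% beside 3.75% of all genes tested, and 1 was lower, a share of 0.714% beside 1.4% of all genes. With no minimum fold, 15 were higher, a share of 10.7% against 31.7% of all genes, and 15 were lower, a share of 10.7% against 11.4% of all genes. The share of higher members lay below that among all genes, a difference that was not tested, and the share of lower members lay near it. Every one of these 30 genes had groups that did not overlap. In all, 17 members had every let-607 RNAi library above every control library, a share of 12.1% beside 35.7% of all genes, and 17 had every one below, a share of 12.1% beside 13.4%. The median log2 fold change of the collagens was 0.02, and -0.11 after median-of-ratios scaling. With no minimum fold, that scaling gave 14 higher members, 10% beside 18.9% of all genes, and 30 lower members, 21.4% beside 19.3% of all genes. Rescaling to equal sums gave 18 higher members, 12.9% beside 38.1% of all genes, and 10 lower members, 7.14% beside 8.88% of all genes.

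The furrow collagens rose together in the let-607 RNAi libraries. All 6 genes of this group, dpy-2, dpy-3, dpy-7, dpy-8, dpy-9 and dpy-10, passed an adjusted p under 0.1, and none reached a 2-fold difference. At that adjusted p 31.7% of all genes tested were higher, and 41.4% of those averaging 10 to 100 FPKM, the level of these 6 genes. The folds of the 6 genes lay between 1.62 and 1.77, with a median log2 fold change of 0.80 beside 0.12 for all genes. The 6 values per library lay between 64.4 and 119.9 FPKM in the let-607 RNAi libraries and between 29.97 and 73.1 FPKM in the control libraries. Loss of any of these genes shortens the worm to the dumpy shape and removes the furrows.

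The neighbouring genes dpy-10 and dpy-2 lie on chromosome II, at 6710149 to 6712227 and 6714292 to 6715971 in WBcel235. dpy-10 was at 69.3, 64.4 and 85.1 FPKM in let-607 RNAi libraries 1, 2 and 3, and at 29.97, 46.0 and 49.5 FPKM in control libraries 1, 2 and 3. The log2 fold change of dpy-10 was 0.82 (standard error 0.20, adjusted p = 0.0204, limma with Benjamini-Hochberg adjustment). dpy-2 was at 84.0, 67.7 and 95.3 FPKM in the let-607 RNAi libraries, against 38.2, 57.0 and 56.0 FPKM in the control libraries (log2 fold change 0.72, standard error 0.19, adjusted p = 0.0256, limma). In both genes the groups were separate, with control 1 lowest of all 6 libraries.

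The genes dpy-3, dpy-7 and dpy-8 lie on the X chromosome. dpy-3, at 2144605 to 2145647, was at 97.0, 79.2 and 119.9 FPKM in the let-607 RNAi libraries and at 39.97, 62.4 and 67.1 FPKM in the control libraries (log2 fold change 0.82, standard error 0.23, adjusted p = 0.0322, limma). dpy-7, at 7536467 to 7537792, was at 106.4, 92.2 and 118.2 FPKM in the let-607 RNAi libraries and at 46.0, 73.1 and 67.5 FPKM in the control libraries (log2 fold change 0.78, standard error 0.18, adjusted p = 0.0169). Its promoter is widely used to drive expression in the epidermis. dpy-8, at 5148804 to 5150476, was at 94.95, 80.7 and 115.8 FPKM in the let-607 RNAi libraries and at 47.0, 60.0 and 58.6 FPKM in the control libraries (log2 fold change 0.81, standard error 0.15, adjusted p = 0.00717). dpy-8 had the smallest standard error and adjusted p of the 6 genes, and its annotated span overlaps C31H2.14.

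The sixth gene, dpy-9 on chromosome IV at 257403 to 259204, was at 94.3, 80.7 and 104.6 FPKM in the let-607 RNAi libraries and at 43.9, 65.1 and 66.0 FPKM in the control libraries (log2 fold change 0.69, standard error 0.17, adjusted p = 0.0231). The order of the libraries was shared across the group. In all 6 genes let-607 RNAi 3 was the highest and let-607 RNAi 2 the lowest of their group, and control 1 was the lowest control. The group summed to 545.9, 464.9 and 638.9 FPKM in let-607 RNAi libraries 1, 2 and 3, against 245.0, 363.6 and 364.5 FPKM in control libraries 1, 2 and 3. This was 0.710%, 0.642% and 0.887% of the collagen FPKM in the let-607 RNAi libraries and 0.287%, 0.518% and 0.466% in the control libraries. Without control 1 the log2 fold changes were 0.50 to 0.70 with adjusted p of 0.0159 to 0.0560, and after median-of-ratios scaling they were 0.57 to 0.70. Without let-607 RNAi 3, 5 of the 6 passed, and dpy-3 had an adjusted p of 0.107.

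**Figure D1:**
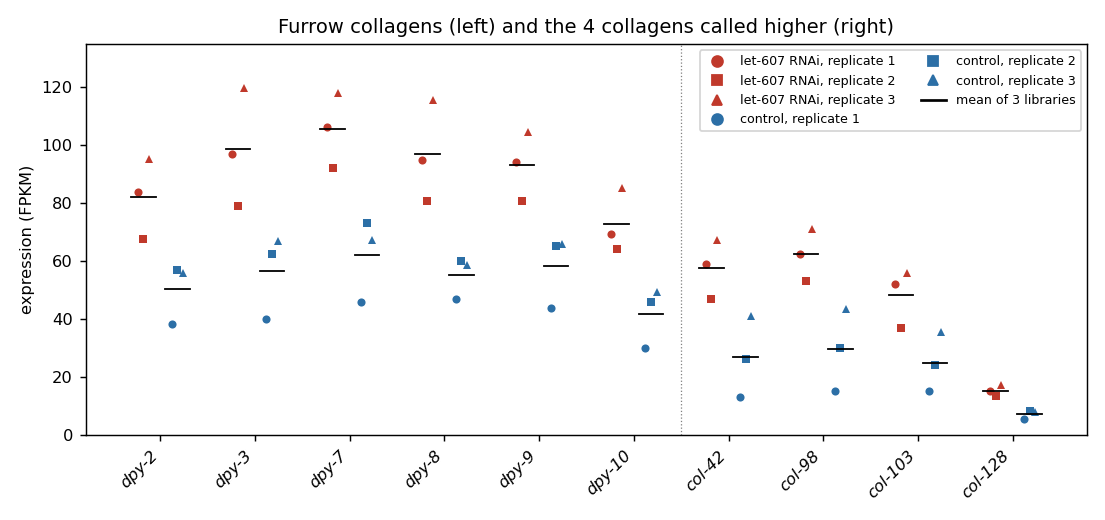
Expression in FPKM (vertical axis) of the 6 furrow collagens, left of the dotted line, and of the 4 collagens called higher, right of it, with let-607 RNAi libraries in red, control libraries in blue, a marker shape per replicate number and a bar at each group mean. In every gene the 3 red points lie above the 3 blue points, and control 1 is the lowest point, at 29.97 FPKM in dpy-10 for example.

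The 4 genes called higher were of moderate abundance, and all are collagens with a col- symbol. col-42, on chromosome V at 18638484 to 18639591, was at 59.0, 46.8 and 67.5 FPKM in the let-607 RNAi libraries and at 13.2, 26.4 and 41.0 FPKM in the control libraries (log2 fold change 1.23, standard error 0.39, adjusted p = 0.049). col-98, on chromosome III at 13019008 to 13020226, was at 62.7, 53.2 and 71.2 FPKM in the let-607 RNAi libraries and at 15.3, 30.2 and 43.7 FPKM in the control libraries (log2 fold change 1.18, standard error 0.36, adjusted p = 0.0427). Both had control 1 lowest and a wide spread among the controls.

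col-103, on chromosome IV at 762413 to 763678, was at 52.2, 36.9 and 56.1 FPKM in the let-607 RNAi libraries and at 15.2, 24.3 and 35.7 FPKM in the control libraries (log2 fold change 1.01, standard error 0.31, adjusted p = 0.0467). Its annotated span overlaps gst-40. col-128, on chromosome IV at 11550002 to 11551960, was at 15.1, 13.5 and 17.5 FPKM in the let-607 RNAi libraries and at 5.65, 8.32 and 8.02 FPKM in the control libraries (log2 fold change 1.07, standard error 0.17, adjusted p = 0.00392). In col-103 the closest libraries of the groups were 36.9 FPKM in let-607 RNAi 2 and 35.7 FPKM in control 3, while in col-128 the groups lay further apart. Without control 1 none of the 4 passed the 2-fold limit, and their log2 fold changes were 0.79 for col-42, 0.77 for col-98, 0.69 for col-103 and 0.89 for col-128. The number of collagens called higher was then 3, and it was 1 without let-607 RNAi 1, let-607 RNAi 3 or control 2, and 7 without control 3. With no minimum fold, col-42, col-98 and col-103 had adjusted p of 0.102 to 0.149 without let-607 RNAi 1, let-607 RNAi 3 or control 2, and col-128 passed without any 1 library.

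Beside the furrow collagens, 5 members rose by less than 2-fold, of which the 4 col- genes are named after their values were seen. col-90 was at 194.0, 157.5 and 155.3 FPKM in the let-607 RNAi libraries and at 95.6, 67.4 and 95.8 FPKM in the control libraries (log2 fold change 0.98, adjusted p = 0.00405), with let-607 RNAi 1 highest and control 2 lowest. Its annotated span overlaps let-754. col-54 was at 14.9, 11.4 and 11.9 FPKM in the let-607 RNAi libraries and at 8.03, 8.37 and 7.31 FPKM in the control libraries (log2 fold change 0.67, adjusted p = 0.00556). col-46, whose span overlaps that of col-47, was at 11.8, 10.7 and 13.6 FPKM in the let-607 RNAi libraries and at 5.64, 6.72 and 7.98 FPKM in the control libraries (log2 fold change 0.82, adjusted p = 0.00654). The low gene col-96 was at 2.99, 3.12 and 2.11 FPKM in the let-607 RNAi libraries and at 1.95, 1.49 and 2.09 FPKM in the control libraries (log2 fold change 0.54, adjusted p = 0.0947), and it did not pass in 9 of the 16 alternative settings, 5 of which left out a library (all but let-607 RNAi 3). rol-3, the receptor tyrosine kinase, was at 3.45, 3.49 and 3.27 FPKM in the let-607 RNAi libraries and at 2.25, 2.30 and 2.45 FPKM in the control libraries (log2 fold change 0.53, adjusted p = 0.0131).

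The 1 member called lower was expressed at a low level. col-148, on chromosome V at 10241753 to 10242790 and overlapping C12D8.9, was at 0.28, 0.58 and 0.29 FPKM in the let-607 RNAi libraries and at 1.75, 1.17 and 0.98 FPKM in the control libraries. Its difference was -1.55 on the log2 scale (adjusted p = 0.0223, limma, standard error 0.39), and with a pseudocount of 1 it was -0.73.

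Higher and lower members differed in abundance, and a like split stood among all genes. Of the 27 members averaging over 1000 FPKM, none was higher and 10, 37%, were lower at an adjusted p under 0.1, beside 5.51% higher and 55.9% lower among all 236 genes at that level. Of the 41 members between 10 and 100 FPKM, 11, 26.8%, were higher and 1 was lower, beside 41.4% higher and 11.3% lower among all genes. Among the 45 members between 100 and 1000 FPKM 1 was higher and 1 lower, 2.22% each, beside 30.9% and 29.2% of all genes. Among the 27 members under 10 FPKM, 3 were higher and 3 lower, 11.1% each, beside 21.1% and 5.53% of all genes. Whether the split differs between collagens and other genes was not tested. The median log2 fold change was 0.03 in the lowest class, 0.16 from 10 to 100 FPKM, 0.00 from 100 to 1000 FPKM and -0.09 above 1000 FPKM, beside 0.15, 0.14, -0.01 and -0.10 for all genes in these classes. The 15 higher genes had a median expression of 46.0 FPKM and the 15 lower genes one of 1412 FPKM. The 10 abundant lower genes had log2 fold changes of -0.39 to -0.11, and after quantile normalization 7 of them no longer passed, with values of -0.10 to 0.03, where dpy-5 and col-48 changed sign.

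**Figure D2:**
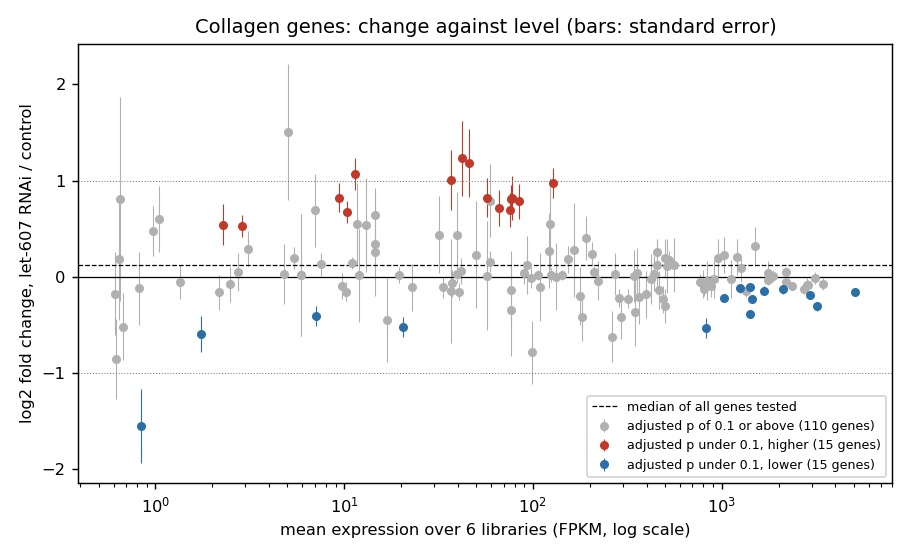
Log2 fold change of let-607 RNAi over control (vertical axis, bars are standard errors) against mean expression over the 6 libraries (horizontal log axis, FPKM) for the 140 collagen genes tested, with genes higher at an adjusted p under 0.1 in red, lower in blue and the rest in grey. The red genes lie mostly between 10 and 100 FPKM, the blue genes mostly above 1000 FPKM, and the dashed line marks the median of all genes at 0.12.

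Among the shape collagens outside the furrow group, 11 of 11 were tested, 3 fell and none rose at an adjusted p under 0.1, with a median log2 fold change of -0.13. Beside this, 11.4% of all genes tested fell and 31.7% rose. Several of these collagens are abundant, and among all genes over 1000 FPKM 55.9% fell and 5.51% rose, with a median of -0.10. Whether the shape collagens differ from genes of like level was not tested. lon-3, whose loss lengthens the worm and whose annotated span overlaps ogdh-2, showed the largest fall. It was at 614.6, 689.7 and 706.7 FPKM in the let-607 RNAi libraries, against 868.3, 1120 and 933.9 FPKM in the control libraries (log2 fold change -0.53, standard error 0.10, adjusted p = 0.00771, limma). The groups were well apart, and the call held after leaving out any single library (adjusted p of at most 0.035). dpy-5, needed for normal body length, was at 2684, 2708 and 2820 FPKM in the let-607 RNAi libraries and at 3217, 2933 and 3220 FPKM in the control libraries (log2 fold change -0.19, adjusted p = 0.0197). sqt-1, mutations of which give squat or rolling worms, was at 1153, 1209 and 1208 FPKM in the let-607 RNAi libraries and at 1219, 1363 and 1306 FPKM in the control libraries (log2 fold change -0.12, adjusted p = 0.0934), and of the 6 single libraries control 1 alone could be left out with the call kept.

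The remaining shape collagens did not pass the test. The log2 fold changes were -0.13 for dpy-4, -0.09 for dpy-13, -0.13 for rol-8, -0.15 for sqt-2, 0.05 for sqt-3 and 0.18 for rol-6, with adjusted p of 0.102 to 0.391. After median-of-ratios scaling dpy-4, dpy-13, rol-8 and sqt-2 passed as lower, with log2 fold changes of -0.25, -0.21, -0.25 and -0.27 (adjusted p = 0.0135, 0.035, 0.0412 and 0.0197). dpy-14 and dpy-17, both named for their dumpy mutants, were low. dpy-14 was at 0.39, 0.86 and 0.47 FPKM in the let-607 RNAi libraries and at 0.41, 0.71 and 0.84 FPKM in the control libraries. dpy-17 was at 0.88, 1.31 and 1.28 FPKM in the let-607 RNAi libraries and at 0.74, 0.86 and 0.77 FPKM in the control libraries (log2 fold change 0.48, adjusted p = 0.202). rol-1, which stands in no list, was at 1899, 1894 and 1807 FPKM in the let-607 RNAi libraries and at 2011, 1686 and 1893 FPKM in the control libraries (log2 fold change 0.01, adjusted p = 0.955).

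The list of strut and adult-stage collagens held 8 genes, of which 2 fell and none rose, with a median log2 fold change of -0.08. Both that fell averaged over 1000 FPKM, a level at which 55.9% of all genes fell and 5.51% rose, beside 11.4% and 31.7% of all genes tested. The struts are pillars between the layers of the adult cuticle, and bli-1 and bli-2 encode their collagens. bli-1 was at 200.1, 210.7 and 260.1 FPKM in the let-607 RNAi libraries and at 169.8, 214.7 and 184.1 FPKM in the control libraries (log2 fold change 0.24, adjusted p = 0.183). bli-2 was at 773.0, 863.9 and 885.9 FPKM in the let-607 RNAi libraries and at 773.8, 1065 and 873.2 FPKM in the control libraries (log2 fold change -0.09, adjusted p = 0.571), so the groups overlapped in both genes. col-38 fell, with 2733, 2869 and 2922 FPKM in the let-607 RNAi libraries and 3668, 3356 and 3539 FPKM in the control libraries (log2 fold change -0.31, standard error 0.04, adjusted p = 0.00254). col-63 was at 2014, 2108 and 1901 FPKM in the let-607 RNAi libraries and at 2237, 2221 and 2132 FPKM in the control libraries (log2 fold change -0.13, adjusted p = 0.0643), and did not pass without let-607 RNAi 1, let-607 RNAi 3, control 1 or control 2 (adjusted p of 0.142 to 0.163).

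The other strut and adult-stage members did not pass. col-19, which is switched on at the passage to adulthood, was at 42.2, 21.2 and 32.3 FPKM in the let-607 RNAi libraries and at 78.8, 17.6 and 28.7 FPKM in the control libraries (log2 fold change -0.15, adjusted p = 0.853). Control libraries gave both its highest and its lowest value, and without control 1 its log2 fold change was 0.45. col-7 had a log2 fold change of 0.18 at under 2 FPKM, and the abundant col-49 and col-138 had log2 fold changes of -0.05 and -0.07, with adjusted p of 0.573 and 0.405. The dauer-stage collagens col-2 and col-40 were at or below 0.34 FPKM in every library and were not tested, and col-6 had no row under that symbol.

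The most abundant member, col-73 on chromosome II at 4872098 to 4873129, was at 4802, 4812 and 4867 FPKM in the let-607 RNAi libraries and at 5733, 5251 and 5203 FPKM in the control libraries (log2 fold change -0.16, standard error 0.04, adjusted p = 0.0281). The let-607 RNAi libraries lay close together and below every control, and without let-607 RNAi 2 the adjusted p was 0.108. col-17, nearby on chromosome II and named after its values were seen, had the smallest adjusted p of the members. It was at 1185, 1196 and 1296 FPKM in the let-607 RNAi libraries and at 1593, 1573 and 1631 FPKM in the control libraries (log2 fold change -0.39, standard error 0.04, adjusted p = 0.000900). Besides col-148 above, the other lower members, also named after their values were seen, were col-43, col-48, col-68, col-72, col-97, col-104 and col-109. Their log2 fold changes were -0.60, -0.11, -0.52, -0.41, -0.14, -0.23 and -0.22 in that order. Without control 1 or let-607 RNAi 2 col-43 did not pass (adjusted p = 0.102 and 0.111), and of the 6 fits without a library, col-97 passed in the fit without control 2 alone. The gene col-71, the fourth most abundant member, did not pass (log2 fold change -0.01, adjusted p = 0.905).

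**Figure D3:**
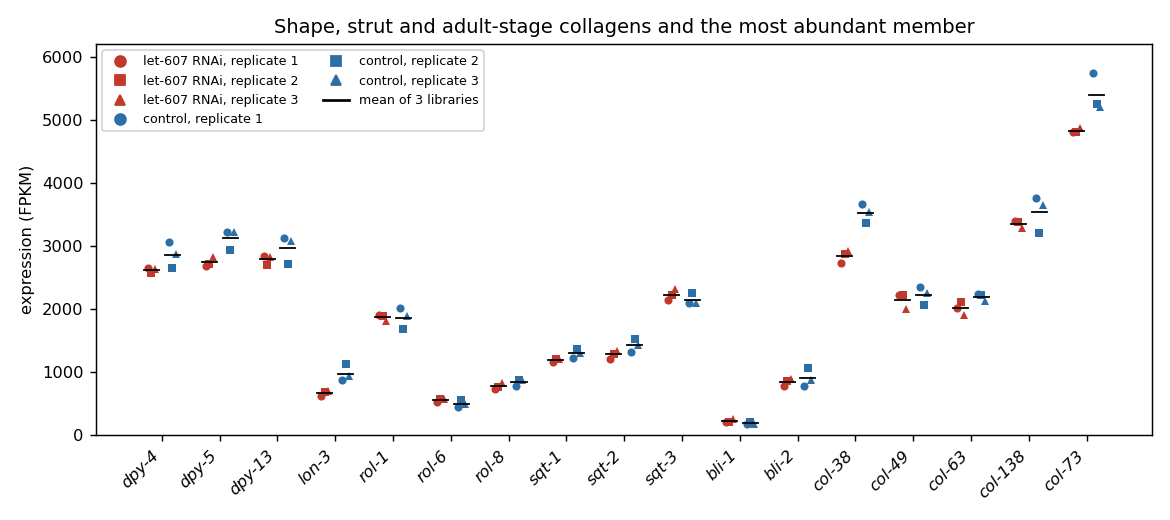
Expression in FPKM (vertical axis, from 0) of shape, strut and adult-stage collagens above 100 FPKM and of col-73, with let-607 RNAi libraries in red to the left of control libraries in blue, a marker shape per replicate number and a bar at each group mean. The groups separate in lon-3, dpy-5, sqt-1, col-38, col-63 and col-73, each lower in let-607 RNAi, and dpy-4 separates without passing the test.

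Collagens linked to lifespan in other work, col-10, col-13 and col-120, did not pass. col-13 was at 291.5, 224.6 and 221.4 FPKM in the let-607 RNAi libraries and at 454.9, 235.0 and 322.0 FPKM in the control libraries (log2 fold change -0.42, standard error 0.24, adjusted p = 0.223). col-120 was at 505.6, 427.3 and 386.6 FPKM in the let-607 RNAi libraries and at 638.3, 371.9 and 468.1 FPKM in the control libraries (log2 fold change -0.14, adjusted p = 0.628). col-10 was at 1287, 1016 and 1021 FPKM in the let-607 RNAi libraries and at 1127, 701.4 and 1049 FPKM in the control libraries (log2 fold change 0.23, adjusted p = 0.389). In col-13 and col-120 control 1 was the highest library of all 6, and without it col-120 had a log2 fold change of 0.07.

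The collagens spread widely between the control libraries. The highest control was more than 2 times the lowest in 45 of the 140 members, 32.1%, against 6.85% of all genes tested, and the median ratio of highest to lowest control was 1.503 for the collagens and 1.152 for all genes. Among the let-607 RNAi libraries 9 members, 6.43%, spread over more than 2 times, against 5.26% of all genes. Control 1 was the highest and control 2 the lowest control in 76 members, 54.3%, against 20.0% of all genes. col-81 shows the pattern, with 65.7, 36 and 53.0 FPKM in the let-607 RNAi libraries and 122.3, 23.8 and 41.9 FPKM in the control libraries (log2 fold change 0.01, standard error 0.57, adjusted p = 0.989). The furrow collagens and the 4 genes called higher had control 1 lowest instead, as 39 of the 140 members and 5242 of the 15453 genes tested did. Among the let-607 RNAi libraries, library 1 was highest in 83 members, library 2 lowest in 57 and library 3 lowest in 59. For all 15453 genes tested these counts were 4808, 3458 and 6093. The order of the 3 libraries was thus shared only in part. The log2 ratio of let-607 RNAi library 1 to library 2 followed that of control 1 to control 2 with a Pearson r of 0.58 across the 140 members and -0.03 across all genes tested. Members share libraries and depth, so this r describes these libraries and carries no test.

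**Figure D4:**
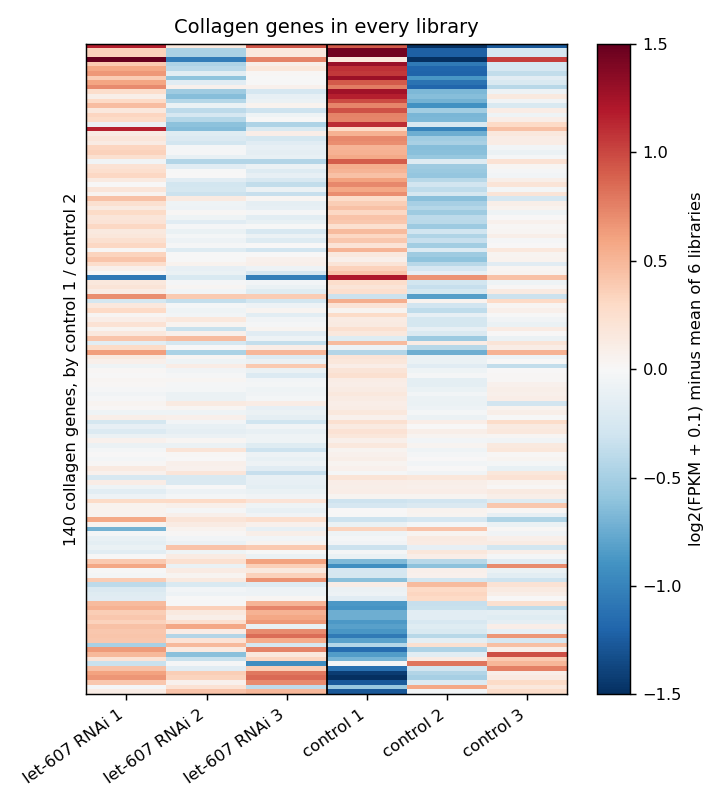
Each row is 1 of the 140 collagen genes tested, ordered by the ratio of control 1 to control 2 from high to low, and each column a library, let-607 RNAi left and control right. Colour gives log2(FPKM + 0.1) minus the mean of the 6 libraries; most rows are red in control 1 and blue in control 2, and the block at the bottom is blue in control 1.

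Molting genes rose in part. Of 11 molting genes, all tested, 6 rose and none fell at an adjusted p under 0.1, with a median log2 fold change of 0.35, and the part of molting stage in the collagen values was not tested. For all genes tested the shares were 31.7% rising and 11.4% falling, and the median was 0.12. fbn-1, a fibrillin-like matrix protein, was at 5.04, 4.76 and 6.43 FPKM in the let-607 RNAi libraries and at 1.26, 2.92 and 3.30 FPKM in the control libraries (log2 fold change 1.18, adjusted p = 0.0402), and was the 1 molting gene past the 2-fold limit. Without let-607 RNAi 1 or let-607 RNAi 3 its adjusted p was 0.101 and 0.131. lpr-3, a lipocalin of the matrix that precedes the cuticle, was at 96.0, 86.1 and 123.2 FPKM in the let-607 RNAi libraries and at 39.9, 60.2 and 59.7 FPKM in the control libraries (log2 fold change 0.94, adjusted p = 0.0111). In both genes, as in the furrow collagens, let-607 RNAi 3 was highest and control 1 lowest. mlt-11, a protease inhibitor, and the zona pellucida domain genes noah-1 and noah-2 had log2 fold changes of 0.91, 0.82 and 0.71 (adjusted p = 0.00478, 0.0104 and 0.0131), and qua-1 one of 0.35 (adjusted p = 0.0249). The other 5, mlt-8, mlt-10, nekl-2, nekl-3 and ptr-4, did not pass, and mlt-10 was at 268.4, 316.5 and 337.2 FPKM in the let-607 RNAi libraries and at 321.9, 383.9 and 342.4 FPKM in the control libraries.

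The enzymes that modify, trim and cross-link collagens were mixed. Of 20 genes tested, 5 rose, 2 fell and none passed the 2-fold limit, with a median log2 fold change of 0.10. This stood beside 31.7% rising, 11.4% falling and a median of 0.12 among all genes tested. skpo-1, a heme peroxidase, was at 15.4, 14.4 and 12.9 FPKM in the let-607 RNAi libraries and at 10.9, 7.38 and 7.86 FPKM in the control libraries (log2 fold change 0.72, adjusted p = 0.0136). dpy-18, a catalytic subunit of prolyl 4-hydroxylase, was at 371.8, 326.7 and 321.5 FPKM in the let-607 RNAi libraries and at 263.1, 202.6 and 236.1 FPKM in the control libraries (log2 fold change 0.54, adjusted p = 0.0078). Its partner subunit phy-2 went the other way, with 89.4, 91.8 and 91.0 FPKM in the let-607 RNAi libraries and 98.5, 112.1 and 113.0 FPKM in the control libraries (log2 fold change -0.25, adjusted p = 0.0206). dpy-11, a thioredoxin-like protein of the epidermis, also fell (log2 fold change -0.24, adjusted p = 0.0125), and bli-4, doxa-1 and phy-3 rose by 0.21, 0.37 and 0.32 on the log2 scale. Of the 16 alternative settings, 5 for bli-4, 8 for doxa-1 and 7 for phy-3 gave an adjusted p above 0.1, as leaving out control 3 or let-607 RNAi 2 or 3 did for all 3 genes. The disulfide isomerase pdi-2 and the procollagen protease dpy-31 did not pass, with log2 fold changes of -0.09 and -0.01.

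Regulators of epidermal collagen expression numbered 18, all tested, of which 7 rose, 1 fell and none passed the 2-fold limit, with a median log2 fold change of 0.13. Among all genes tested 31.7% rose and 11.4% fell, and the median was 0.12, so the median of the regulators lay near that of all genes. The largest changes were in sma-3 and sma-9, a Smad and a Schnurri homolog of the pathway that sets body size. sma-3 was at 10.2, 10.3 and 9.12 FPKM in the let-607 RNAi libraries and at 6.70, 5.81 and 7.86 FPKM in the control libraries (log2 fold change 0.54, adjusted p = 0.0155). sma-9 was at 20.6, 23.2 and 21.4 FPKM in the let-607 RNAi libraries and at 16.0, 15.6 and 14.03 FPKM in the control libraries (log2 fold change 0.51, adjusted p = 0.00301). nhr-23, a nuclear receptor needed for molting, rose by 0.32 on the log2 scale (adjusted p = 0.00659). lin-42, the worm homolog of the clock gene period, fell, with 244.4, 257.4 and 269.4 FPKM in the let-607 RNAi libraries and 330.1, 327.3 and 325.6 FPKM in the control libraries (log2 fold change -0.35, adjusted p = 0.00133).

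Loss of furrow collagens is known to switch on antimicrobial peptide and osmotic stress genes in the epidermis, and 10 such genes were examined. At an adjusted p under 0.1, 6 rose and 1 fell, 3 of the 6 past the 2-fold limit, and the median log2 fold change was 0.75. Across all genes tested 31.7% rose, 3.75% past the 2-fold limit, and 11.4% fell, with a median of 0.12. The furrow collagen mRNAs were higher in the let-607 RNAi libraries, the furrows themselves were not examined here, and the cause of these changes was not tested. nlp-34 was at 206.6, 133.3 and 162.2 FPKM in the let-607 RNAi libraries and at 90.0, 51.2 and 57.1 FPKM in the control libraries (log2 fold change 1.36, adjusted p = 0.00612). nlp-31 was at 153.6, 149.0 and 123.9 FPKM in the let-607 RNAi libraries and at 46.0, 75.7 and 62.0 FPKM in the control libraries (log2 fold change 1.24, adjusted p = 0.00282). Both encode small antimicrobial peptides of the epidermis. The caenacin cnc-2 was at 3.02, 5.49 and 3.70 FPKM in the let-607 RNAi libraries and at 1.05, 1.88 and 0.51 FPKM in the control libraries (log2 fold change 1.86, adjusted p = 0.0192). nlp-29 and nlp-30 had log2 fold changes of 0.92 and 0.83 (adjusted p = 0.00994 and 0.00158). Of the osmotic genes, hmit-1.1, a myo-inositol transporter, rose (log2 fold change 0.67, adjusted p = 0.0625, and 0.118 to 0.186 without let-607 RNAi 1, let-607 RNAi 2, control 2 or control 3), while gpdh-1, a glycerol synthesis enzyme, did not pass (log2 fold change -0.22, adjusted p = 0.288). The detoxification gene gst-4 fell (log2 fold change -0.23, adjusted p = 0.0224), and nlp-27 and nlp-28 did not pass.

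**Figure D5:**
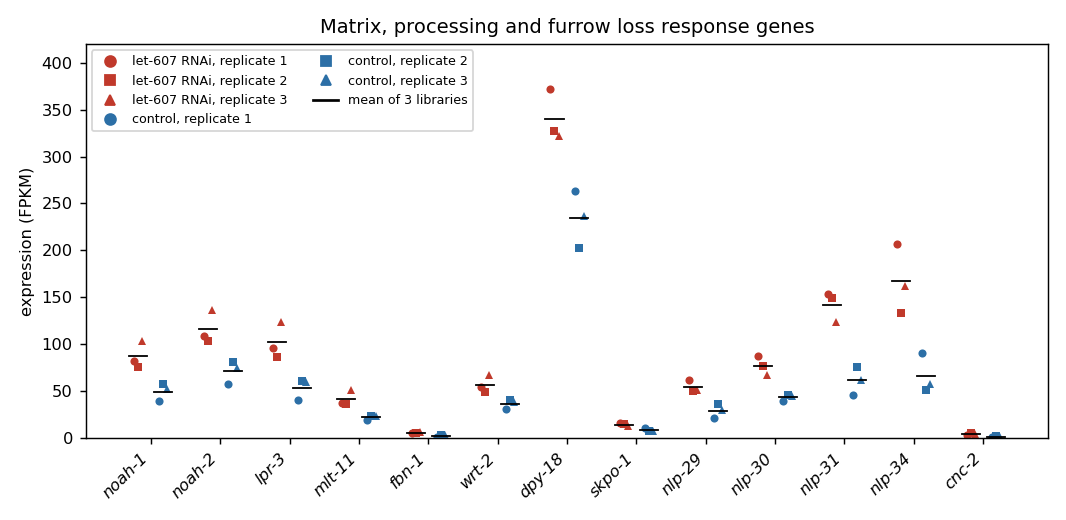
Expression in FPKM (vertical axis, from 0) of molting genes, wrt-2, 2 collagen-modifying enzymes and furrow loss response genes, with let-607 RNAi libraries in red to the left of control libraries in blue, a marker shape per replicate number and a bar at each group mean. Only genes that rose at an adjusted p under 0.1 are shown. Genes of the same lists that fell (wrt-4, phy-2, dpy-11 and gst-4) or did not pass are left out. In every gene shown the 3 red points lie above the 3 blue points, as in dpy-18 with 321.5 FPKM or more in let-607 RNAi and 263.1 FPKM or less in control.

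Whole worms were sequenced, so a change in the share of epidermal cells and a change in collagen mRNA per cell cannot be told apart. The epidermal markers were present in every library. Of 7, 3 rose (elt-3, vab-10 and wrt-2) and wrt-4 fell, the call of elt-3 being lost in 6 of 16 alternative settings (adjusted p of 0.103 to 0.412), with a median log2 fold change of 0.15 and sums of 475.0 to 537.7 FPKM in the let-607 RNAi libraries and 548.4 to 603.4 FPKM in the control libraries. wrt-4 was at 205.7, 231.0 and 240.2 FPKM in the let-607 RNAi libraries and at 359.0, 320.4 and 319.2 FPKM in the control libraries (log2 fold change -0.56, adjusted p = 0.00179). As the most abundant of the 7 markers, wrt-4 weighs most in these sums, which do not stand for the markers as a set. ajm-1, dlg-1 and che-14 did not pass, with log2 fold changes of 0.12, 0.15 and -0.06. The markers of other tissues rose in part, with 1 of 4 intestinal, 2 of 4 muscle and 3 of 4 neuronal genes passing and none falling, among them asp-1, unc-54 and snb-1 with log2 fold changes of 0.28, 0.31 and 0.57 (unc-54 had an adjusted p of 0.11 without let-607 RNAi 3). Germline markers also rose. Of 31 major sperm protein genes 28 rose, with sums of 20938 to 21761 FPKM in the let-607 RNAi libraries and 12415 to 14291 FPKM in the control libraries, and all 7 oocyte genes rose, with sums of 386.3 to 402.9 FPKM in the let-607 RNAi libraries and 208.9 to 276.7 FPKM in the control libraries. The largest germline changes were 0.96 for msp-65, whose near-identical family may share reads, and 1.08 for puf-5, the 1 oocyte gene past the 2-fold limit, on the log2 scale. Of 6 yolk genes 2 fell past that limit, vit-3 and vit-4, with log2 fold changes of -1.40 and -1.38, and control 1 was their highest library, without which vit-4 had a log2 fold change of -0.84 (adjusted p = 0.12). Beside these marker counts, 31.7% of all genes tested rose and 11.4% fell at an adjusted p under 0.1, with a median of 0.12. No gene of these marker lists was at 0 in all libraries, and their part in the collagen changes was not tested.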

How the data were processed

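RNA of 6 libraries, 3 per group, was sequenced as paired ends from a stranded mRNA kit. The authors deposited FPKM per gene, already normalised for gene length and library size. Their methods name TopHat and Cufflinks, whereas the submitters' processing notes name fastp, HISAT, RSEM and the build WBcel235, so which program gave the FPKM is not settled. The table held 48197 lines, of which 1 was broken and 1418 were repeats, leaving 46778 genes. Of these, 46603 matched Ensembl release 115, which gave positions and overlaps.

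Genes averaging 0.5 FPKM or more were tested on log2(FPKM + 0.1) with limma 3.58.1 (mean-variance trend) in R 4.3.3, and p-values were adjusted over all 15453 genes by Benjamini-Hochberg. A gene was called at an adjusted p under 0.1 and more than 2-fold, the thresholds of the study. FPKM is no count, so no count model was used, and Python 3.11.15 made the summaries. The script was tested on simulated data. Named were all members without a col- symbol, the up to 10 largest called changes in each direction, the 5 highest members, the col- genes of the stage and role lists, and in other lists the called genes and the 2 largest changes; others were added after values were seen. The members and lists were chosen with earlier results of these data known. Alternatives were other pseudocounts, filters, scalings and thresholds, a robust trend, a replicate block and leaving out each library. Where genes overlap, as 45 tested members do with another coding gene, reads may be shared, and not all of these overlaps are named above. Replicate numbers were not used to pair the libraries in the main fit.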

Additional observations from a re-analysis of the deposited data

How the results depend on the processing

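The 6 furrow collagens passed an adjusted p under 0.1 in every setting run except without let-607 RNAi 3, where 5 did, so that the range over left-out libraries was 5 to 6. This count and those with no minimum fold were followed through the settings after the data were seen. The number of collagens called higher was 4, and 2 with a pseudocount of 1, 2 with median-of-ratios scaling, 2 with quantile normalization, 15 with no minimum fold and 1 to 7 when single libraries were left out. The number called lower was 1, and 0 with a pseudocount of 1, 0 with a mean of at least 1 FPKM or at least 5 FPKM, which leave col-148 out, 2 with quantile normalization, 15 with no minimum fold and 1 to 2 when single libraries were left out. The median log2 fold change of the collagens was 0.02, -0.11 with median-of-ratios scaling and -0.11 to 0.14 when single libraries were left out (-0.11 without control 2, 0.14 without control 1). With no minimum fold, the higher count was 11 to 22 over left-out libraries (7.86% to 15.7%, beside 23.7% to 30% of all genes) and the lower count 11 to 21 (7.86% to 15%, beside 9.05% to 10.8%). The lower count was 30 with median-of-ratios scaling, 21.4% beside 19.3% of all genes.

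The replicate numbers were taken as names only, since the correlations of same-numbered libraries over all genes tested were -0.06, 0.00 and -0.02. Across the 140 collagens, however, the log2 ratios of library 1 to library 2 went together in the 2 groups (Pearson r of 0.58). Whether same-numbered libraries share a factor that acts on the collagens was not tested. With the replicate block, 5 collagens were called higher and 1 lower, and with no minimum fold 20 were higher, 14.3% beside 28.7% of all genes, and 24 lower, 17.1% beside 10.4%. Of the fitted values of single named collagens under the alternatives, 47 no longer passed an adjusted p of 0.1 and 26 newly passed without a change of sign. The sign changed in 30 of 805 values, of 15 genes. In 27 of the 30 the gene passed in neither fit, as for col-19, which was 0.45 without control 1. The other 3 came with quantile normalization (dpy-5 to 0.0101, col-48 to 0.0268 and col-71 to 0.14), and the cause was not tested. For other named genes, 65 values no longer passed, 6 newly passed and 6 of 685 changed sign, with no pass in either fit. Depth is not known, which limits statements on members under 1 FPKM such as col-148.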

Other observations

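The largest fitted change among members that did not pass was in col-137, with 8.69, 4.28 and 7.36 FPKM in the let-607 RNAi libraries and 7.32, 0.94 and 1.53 FPKM in the control libraries (log2 fold change 1.504, standard error 0.71, adjusted p = 0.150, and 2.34 with adjusted p = 0.00881 without control 1). col-126 and col-127, neighbours on chromosome IV, had identical FPKM in all 6 libraries and cannot be told apart. Of 5 collagens outside the symbol rule, the basement membrane collagens emb-9 and let-2 rose, with log2 fold changes of 0.14 and 0.20 (adjusted p = 0.0975 and 0.0774) and groups that overlapped, and both calls were lost in 8 of 16 alternative settings. The blister collagen bli-6 was at 2388, 2319 and 2292 FPKM in the let-607 RNAi libraries and at 2295, 2163 and 2263 FPKM in the control libraries (log2 fold change 0.06, adjusted p = 0.237), and cle-1 and mec-5 did not pass.

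By chromosome, 3 of the 22 tested collagens on the X chromosome were higher, all of them furrow collagens, a share of 13.6% beside 18.7% of all genes there, and none was lower, beside 14.4%. On chromosome II 2 of 24 were higher, 8.33% beside 32.5%, and 6 were lower, 25% beside 10.4%. Of these 6, col-17, col-38, col-73 and sqt-1 averaged over 1000 FPKM, a level at which 55.9% of all genes were lower. On chromosomes I, III, IV and V 11.8%, 27.3%, 8.33% and 6.67% were higher, beside 36.4%, 35.7%, 35.3% and 30.2%. In the same order 17.6%, 9.09%, 5.56% and 10% were lower, beside 10%, 9.67%, 10.4% and 13.3%.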
